A study of Danio rerio with 8 samples.

Results

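The nuclear-encoded subunits of mitochondrial complex I were followed at the RNA level in zebrafish hearts, in cox7a1-/- mutant adults and in their wildtype siblings. The subunits were chosen by name from a list of 39 gene symbols, of which 34 were matched directly, 4 after a paralog suffix was dropped and 1 (ndufa13) was not matched. The list does not hold every nuclear subunit of the enzyme. Both ndufs8a and ndufs8b led to the same row, NDUFS8, so that 37 of the 32520 gene rows were members, and 36 of them had enough reads to be tested. RNA was sequenced from 4 mutant pools and 4 wildtype pools, each of 5 cardiac ventricles, all taken 7 days after cryoinjury, in which part of the ventricle is killed by freezing. All pools of both genotypes were injured, so the values describe the mutation in injured hearts only, and the nature of the cox7a1 allele is not given in the labels. Symbols are printed as the symbol table used here gives them, many of them in upper case.

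Complex I (NADH:ubiquinone oxidoreductase) takes electrons from NADH, passes them along a flavin and a chain of iron-sulphur clusters in an arm that stands in the matrix, and hands them to ubiquinone, while an arm in the inner membrane pumps protons. The hydrophobic core of the membrane arm is made from the mitochondrial genome, and the other subunits are made from nuclear genes and imported, so their messages come from separate compartments. Cardiac muscle is densely packed with mitochondria and expresses these genes strongly. Cox7a1 is a subunit of complex IV, which lies further along the same electron transport chain.

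Total counts ran from 41556101 to 69057989 in mutant pools and from 49788133 to 53597730 in wildtype pools, and mutant replicate 4 was the deepest library. Levels are given in CPM, read counts scaled to the library size, which is adjusted by a TMM factor for each library. The targeted gene cox7a1 had 59.5, 113, 88.5 and 194 CPM in mutant replicates 1 to 4. In wildtype replicates 1 to 4 it had 210, 278, 286 and 211 CPM. All mutant pools lay below all wildtype pools (two-sided exact permutation test, p = 0.0286, the smallest that 4 pools against 4 allow), with a log2 fold change of -1.11 ± 0.295 (SE) and an edgeR adjusted p of 0.0776. Without mutant replicate 4 it was -1.50 ± 0.216 (SE) with an edgeR adjusted p of 0.0144, which is past the threshold. The direction of this move was fixed by leaving out the mutant pool with the highest level. Without mutant replicate 1, 2 or 3 the log2 fold change was -0.91, -1.11 and -1.01, with edgeR adjusted p of 0.125, 0.154 and 0.22. Mutant replicate 4, the pool with the most cox7a1 among mutants, also stands apart in the results that follow, and those that rest on it are given with and without it. The mean of other nuclear complex IV subunits had the same order among mutant pools (-0.55, -0.22, -0.31 and 0.52, log2 relative to wildtype). This order is not particular to complex IV. ATP synthase subunits (-0.63, -0.21, -0.24 and 0.66) and cytosolic ribosomal protein genes (-0.40, -0.12, -0.22 and 0.59) had it too. Whether the cox7a1 level and the state of that pool are related was not tested. The cardiomyocyte marker MYL7, the atrial and ventricular myosin light chain of the fish heart, was abundant in each pool. It ran from 8420 to 14300 CPM in mutant and from 9820 to 13000 CPM in wildtype pools. Tested rows of the cardiomyocyte list ranged widely, from 0.198 CPM for myl4 in wildtype replicate 4 to 55200 CPM for MYH7 in mutant replicate 3. Over the whole transcriptome 363 of 17949 genes differed between the genotypes, 205 higher and 158 lower in mutants (60 higher and 97 lower with libraries scaled by their totals alone).

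None of the 36 tested complex I subunits passed edgeR's test between the genotypes with all pools, and each of them had overlapping mutant and wildtype pools. With edgeR's quasi-likelihood test 0 of 36 subunits had an adjusted p under 0.05, beside 2.02% of all genes tested (0 higher beside 1.14%, and 0 lower beside 0.880%), so this count alone does not set the subunits apart. An unadjusted p under 0.05 was found for 0 of 36, beside 18.0% of all genes. DESeq2 called 0 of 36, beside 6.10% of all genes, and limma-voom 0 of 36, beside 2.06%. The groups did not overlap in 0 of 36 subunits, beside 11.7% of all genes. The median log2 fold change of the subunits was -0.10, with 30 values below 0 and 6 above, and that of all genes tested was 0.00, with 49.6% of genes below 0. Values ran from -0.47 for NDUFS8 to 0.19 for NDUFV1, with standard errors from 0.157 to 0.318, and the smallest edgeR adjusted p was 0.354. Intervals of 2 standard errors on either side reached from -0.97 to 0.72 over the whole set, so that changes of moderate size in single subunits were not detectable with this spread.

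The spread among pools was wide, and the subunits shared it. Relative to the wildtype mean of each gene, the mean log2 level of the 36 subunits stood at -0.70, -0.28, -0.28 and 0.56 in mutant replicates 1 to 4, against -0.15, 0.24, 0.11 and -0.20 in wildtype replicates 1 to 4. Thus mutant replicate 1 was the lowest pool and mutant replicate 4 the highest, and the wildtype pools lay between them. The same pools were the shallowest and the deepest library, with 41556101, 47461164, 48108612 and 69057989 total counts in mutant replicates 1 to 4. Wildtype replicates 1 to 4 had 53597730, 51889237, 52499319 and 49788133. Whether depth and the complex I level are related was not tested. Mutant replicate 4 held the highest level of 33 of 36 subunits, beside 16.4% of all genes, and mutant replicate 1 the lowest level of 34 of 36, beside 13.9% of all genes. Both held in 31 of 36 subunits, beside 4.32% of all genes. Subunits share their libraries and cannot count as independent evidence of this. In a ventricle pool, fewer cells of a type and less RNA per cell cannot be told apart. A wildtype pool held the highest level of the other 3 subunits, NDUFS8, NDUFB4 and ndufv3.

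**Figure D1:**
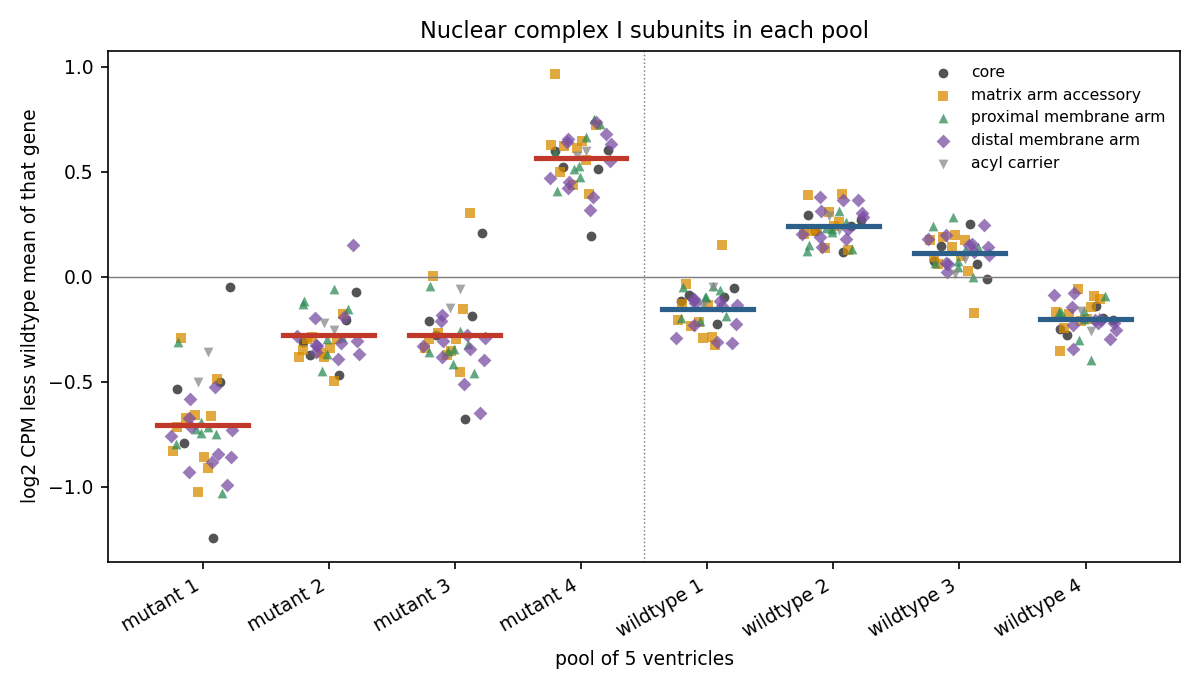
Log2 CPM of each of the 36 tested nuclear complex I subunits less the wildtype mean of that gene (y axis), in each pool of 5 ventricles (x axis); marker shapes give the subunit group and bars the mean over subunits. The bars stand at -0.70, -0.28, -0.28 and 0.56 in mutant replicates 1 to 4, and at -0.15, 0.24, 0.11 and -0.20 in wildtype replicates 1 to 4.

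Within a genotype, mutant pools varied more than wildtype pools. The SD of log2 CPM was larger among the mutant pools in 36 of 36 subunits, beside 51.6% of all genes, with a median SD of 0.544 in mutants and 0.217 in wildtypes. Without mutant replicate 4 it was larger in 18 of 36, beside 41.8% of all genes, and without mutant replicate 1 in 36 of 36, beside 49.4%. From the lowest to the highest of the 8 pools, levels differed 1.65-fold for NDUFA10, 2.42-fold for the median subunit and 3.38-fold for NDUFA3. Subunits took 0.259%, 0.311%, 0.294% and 0.469% of all counts in mutant replicates 1 to 4, and 0.361%, 0.419%, 0.371% and 0.320% in wildtype replicates 1 to 4.

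Leaving out mutant replicate 4 moved the subunits together to lower values in mutants, without a call. That pool was highest for 33 of 36 subunits, so the direction of this move was fixed by the choice of pool. The counts that follow describe the other pools and are no separate evidence of a lower level in mutants. The median log2 fold change without it was -0.45, and 35 of 36 subunits were below 0, beside 50.6% of all genes. An unadjusted p under 0.05 with a lower level was found for 26 of 36, beside 10.2% of all genes, and the 3 remaining mutant pools lay below all wildtype pools for 18 of 36, beside 9.74% of all genes. Even so, 0 of 36 passed edgeR's adjusted threshold, beside 2.07% of all genes, and the smallest adjusted p was 0.0636, for NDUFS8. Other gene groups, whose mean level was also highest in mutant replicate 4, moved in the same way without it. An unadjusted p under 0.05 with a lower level was then found for 10 of 15 other complex IV subunits (median -0.41), 12 of 18 ATP synthase subunits (median -0.40) and 33 of 75 cytosolic ribosomal protein genes, a list added after the data were seen, of which 73 were below 0 (median -0.23). In contrast, without mutant replicate 1, which was lowest for 34 of 36 subunits, the complex I median was 0.06 and 14 of 36 subunits were below 0. The smallest edgeR adjusted p was then 0.54. The direction of this move was likewise fixed by the choice of pool. Without mutant replicate 2 the median was -0.06, and without mutant replicate 3 it was -0.04. Among mutant pools, only leaving out replicate 1 thus made the median positive.

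**Figure D2:**
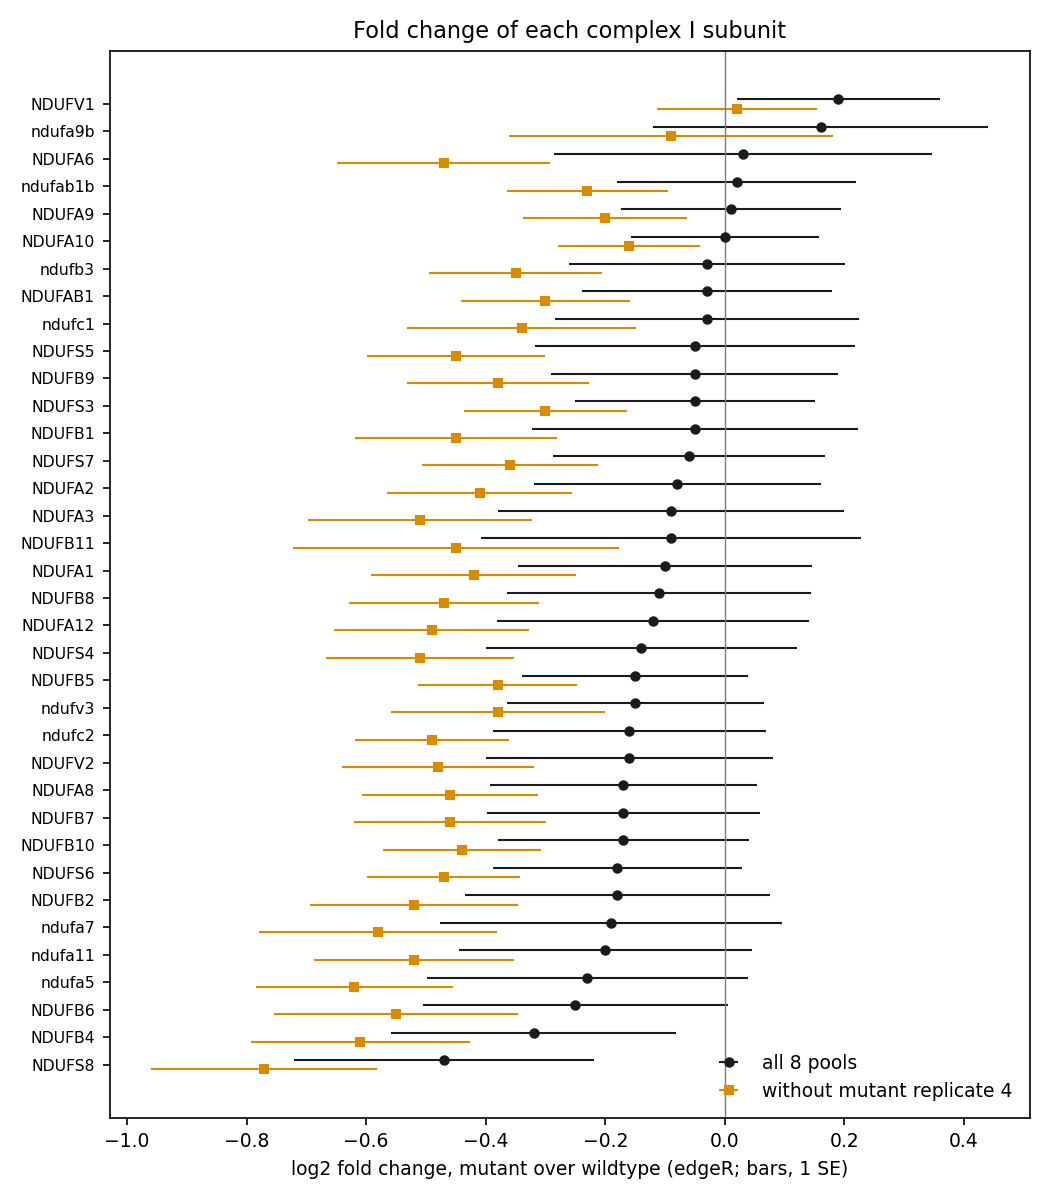
Log2 fold change, mutant over wildtype, of each tested complex I subunit from edgeR (x axis; bars are 1 standard error), with all 8 pools (dots) and without mutant replicate 4 (squares). With all pools 30 of 36 values are below 0 around a median of -0.10, and without mutant replicate 4 they are 35 of 36 around a median of -0.45.

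The core subunits carry the flavin and the iron-sulphur clusters and are shared with the bacterial enzyme. NDUFV1 (ENSDARG00000036438; GRCz11, chromosome 19, 9212031 to 9228512, plus strand), which binds NADH and the flavin, had 433, 426, 517 and 681 CPM in mutant replicates 1 to 4, against 432, 540, 445 and 389 CPM in wildtype replicates 1 to 4. It was highest in mutant replicate 4 and lowest in wildtype replicate 4, unlike most subunits, and averaged 515 ± 119 CPM in mutants and 452 ± 63.9 CPM in wildtypes (SD, n = 4 each). Its partner NDUFV2 (chromosome 2), which holds an iron-sulphur cluster, had 86.3, 116, 123 and 215 CPM in mutant pools, against 141, 174, 165 and 124 CPM in wildtype pools. Mutant replicates 1 to 3 were thus below the lowest wildtype pool, and mutant replicate 4 was above the highest. The log2 fold changes were 0.19 ± 0.170 for NDUFV1 and -0.16 ± 0.240 for NDUFV2 (SE), with edgeR adjusted p of 0.616 and 0.781.

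In the part of the matrix arm that leads to ubiquinone, NDUFS8 (ENSDARG00000051986; chromosome 1, 44814322 to 44823071, plus strand), which holds a pair of iron-sulphur clusters, had the lowest fold change of the 36 tested subunits. This row was matched to both ndufs8a and ndufs8b of the list, and which copy it measures was not settled. It had 115, 197, 170 and 311 CPM in mutant replicates 1 to 4, against 232, 294, 323 and 247 CPM in wildtype replicates 1 to 4. Mutant replicates 1 to 3 lay below each wildtype pool, and mutant replicate 4 lay within the wildtype range. The means were 198 ± 82.6 CPM in mutants and 274 ± 42.2 CPM in wildtypes (SD, n = 4 each), with a log2 fold change of -0.47 ± 0.251 (SE; 0.722-fold, edgeR adjusted p = 0.354), and of -0.77 ± 0.189 without mutant replicate 4 (adjusted p = 0.0636). NDUFS7 (chromosome 11), which holds the cluster next to ubiquinone, had 110, 128, 138 and 241 CPM in mutant pools, against 147, 195, 168 and 134 CPM in wildtype pools. NDUFS3 (chromosome 7), a structural core subunit of the same region, had 92.6, 114, 115 and 187 CPM in mutant pools, against 123, 155, 137 and 114 CPM in wildtype pools. Both followed the pattern of NDUFV2, with mutant replicate 1 lowest and mutant replicate 4 highest, and their log2 fold changes were -0.06 ± 0.227 and -0.05 ± 0.200 (SE).

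NDUFS1 (ENSDARG00000028546; chromosome 6, 13206516 to 13231951, plus strand), the largest core subunit of the matrix arm, could not be measured from this count table. It had 0, 0, 0 and 1 counts in mutant replicates 1 to 4, and 0, 1, 0 and 0 counts in wildtype replicates 1 to 4. Of its 2515 exonic bases, 2471 (98.3%) are also exonic in ino80db on the same strand, and the counting command has no option that assigns reads shared by overlapping genes. Its near-zero counts are therefore no measure of its transcript. A lesser share of exonic bases was shared for NDUFB11 (66.4%, with rhoaa) and ndufb3 (11.0%, with USP37), and 0 bases for each of the other 34 members. The level of NDUFB11 per length is accordingly uncertain.

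Accessory subunits surround the core and are needed for assembly and stability. Of the 10 in the matrix arm, 7 had a log2 fold change below 0 (median -0.13; -0.47 without mutant replicate 4). NDUFS6, a zinc-binding subunit, had 38.2, 46.9, 46.6 and 81.8 CPM in mutant replicates 1 to 4, against 51.9, 66.3, 66.5 and 58.0 CPM in wildtype replicates 1 to 4. Mutant replicates 1 to 3 lay below each wildtype pool and mutant replicate 4 above each of them, with a log2 fold change of -0.18 ± 0.208 (SE; edgeR adjusted p = 0.700). NDUFA6, a subunit of the LYR family that binds the acyl carrier protein, had 39.0, 50.3, 52.1 and 125 CPM in mutant pools, against 58.5, 83.8, 68.5 and 50.2 CPM in wildtype pools. Mutant replicate 4 stood far above the other mutant pools, and the log2 fold change was 0.03 ± 0.316 with it and -0.47 ± 0.178 (SE) without it. NDUFS4 and NDUFA12, which join the matrix arm late in assembly, had log2 fold changes of -0.14 ± 0.260 and -0.12 ± 0.261 (SE).

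NDUFA9, a subunit at the joint of the arms, had a strongly and a weakly expressed paralog. NDUFA9 (chromosome 25) had 152, 151, 186 and 262 CPM in mutant replicates 1 to 4, against 181, 216, 194 and 157 CPM in wildtype replicates 1 to 4. The second gene, ndufa9b (ENSDARG00000094312; chromosome 10, 8128374 to 8129456, minus strand), had 1.49, 1.86, 2.62 and 3.5 CPM in mutant pools, against 2.35, 2.31, 1.87 and 1.96 CPM in wildtype pools. Its 1083 exonic bases fill its whole span, so it is annotated without an intron. Per kilobase of exon, NDUFA9 averaged 104 ± 29.1 in mutants and 104 ± 13.7 in wildtypes, and ndufa9b 2.19 ± 0.820 in mutants and 1.96 ± 0.223 in wildtypes (CPM per kilobase, SD, n = 4 each). The log2 fold changes were 0.01 ± 0.184 and 0.16 ± 0.280 (SE), and neither passed the test.

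The acyl carrier protein is a subunit of complex I at more than 1 site and also serves mitochondrial fatty acid synthesis. NDUFAB1 (chromosome 1), the row matched to ndufab1a, had 50.4, 61.3, 64.3 and 106 CPM in mutant replicates 1 to 4, against 64.9, 87.4, 72.1 and 63.8 CPM in wildtype replicates 1 to 4. Its paralog ndufab1b (chromosome 3) had 59.6, 64.0, 73.3 and 116 CPM in mutant pools, against 73.8, 88.9, 81.0 and 63.9 CPM in wildtype pools. In both genes mutant replicate 1 was lowest and mutant replicate 4 highest. Per kilobase, NDUFAB1 averaged 76.9 ± 26.7 in mutants and 78.5 ± 11.9 in wildtypes, and ndufab1b 50.8 ± 16.7 in mutants and 50.0 ± 6.93 in wildtypes (CPM per kilobase, SD, n = 4 each). NDUFAB1 was thus the higher copy per length on average, with overlapping spreads among mutants. Within each single pool it was also the higher of the 2 per length (918 exonic bases, against 1537 for ndufab1b). Their log2 fold changes were -0.03 ± 0.209 and 0.02 ± 0.200 (SE).

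In the membrane arm, the proximal accessory subunits sit near the ubiquinone site and the distal ones around the outermost proton pumps. Of 8 proximal subunits 7 were below 0, with a median of -0.09 (-0.45 without mutant replicate 4), and of 11 distal subunits 11 were below 0, with a median of -0.15 (-0.45 without it). The background share below 0 is 49.6%. NDUFB4, a distal subunit, had 48.1, 67.6, 62.3 and 111 CPM in mutant replicates 1 to 4, against 71.5, 115, 98.5 and 77.0 CPM in wildtype replicates 1 to 4. Its highest pool was wildtype replicate 2, and its log2 fold change was -0.32 ± 0.238 (SE; edgeR adjusted p = 0.517). NDUFB6, also distal, had 30.8, 47.0, 45.2 and 78.8 CPM in mutant pools, against 50.1, 76.4, 67.6 and 46.3 CPM in wildtype pools, with a log2 fold change of -0.25 ± 0.255. NDUFA10, a proximal subunit that resembles nucleoside kinases, had 130, 149, 156 and 214 CPM in mutant pools, against 156, 179, 169 and 144 CPM in wildtype pools. It varied least among pools, and its log2 fold change was 0.00 ± 0.157. Among the proximal subunits, NDUFA8 and NDUFS5, which carry twin cysteine motifs of the intermembrane space, had log2 fold changes of -0.17 ± 0.223 and -0.05 ± 0.267, and ndufc1 and ndufc2 of -0.03 ± 0.254 and -0.16 ± 0.228.

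Per kilobase of exon, the subunits were ordered alike among pools. NDUFB1, a small distal subunit, was highest, with 207 ± 103 CPM per kilobase in mutants and 215 ± 30.9 in wildtypes (SD, n = 4 each). Its gene has 177 exonic bases in the annotation, the fewest of the 36, and its level per length is uncertain for that reason. NDUFB7 followed with 187 ± 70.7 in mutants and 210 ± 33.4 in wildtypes, NDUFB10 with 177 ± 64.7 in mutants and 198 ± 17 in wildtypes, and NDUFV1 with 200 ± 46.1 in mutants and 176 ± 24.9 in wildtypes, and these neighbours differed by less than their spread. At the low end, NDUFA3 had 37.9 ± 20.3 in mutants and 40.4 ± 4.54 in wildtypes, and NDUFB11 20.0 ± 10.4 in mutants and 21.2 ± 5.21 in wildtypes. Apart from NDUFB11 and ndufa9b, the mean over all pools lay between 39.2 and 211 CPM per kilobase. Between any 2 pools the Spearman correlation of the levels per kilobase across the 36 genes was at least 0.929, a description over genes that share libraries and lengths. The 21.0, 33.0, 29.8 and 62.9 CPM of NDUFB1 in mutant replicates 1 to 4, against 34.3, 44.3, 41.0 and 32.7 CPM in wildtype replicates 1 to 4, again put mutant replicate 4 highest and mutant replicate 1 lowest.

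**Figure D3:**
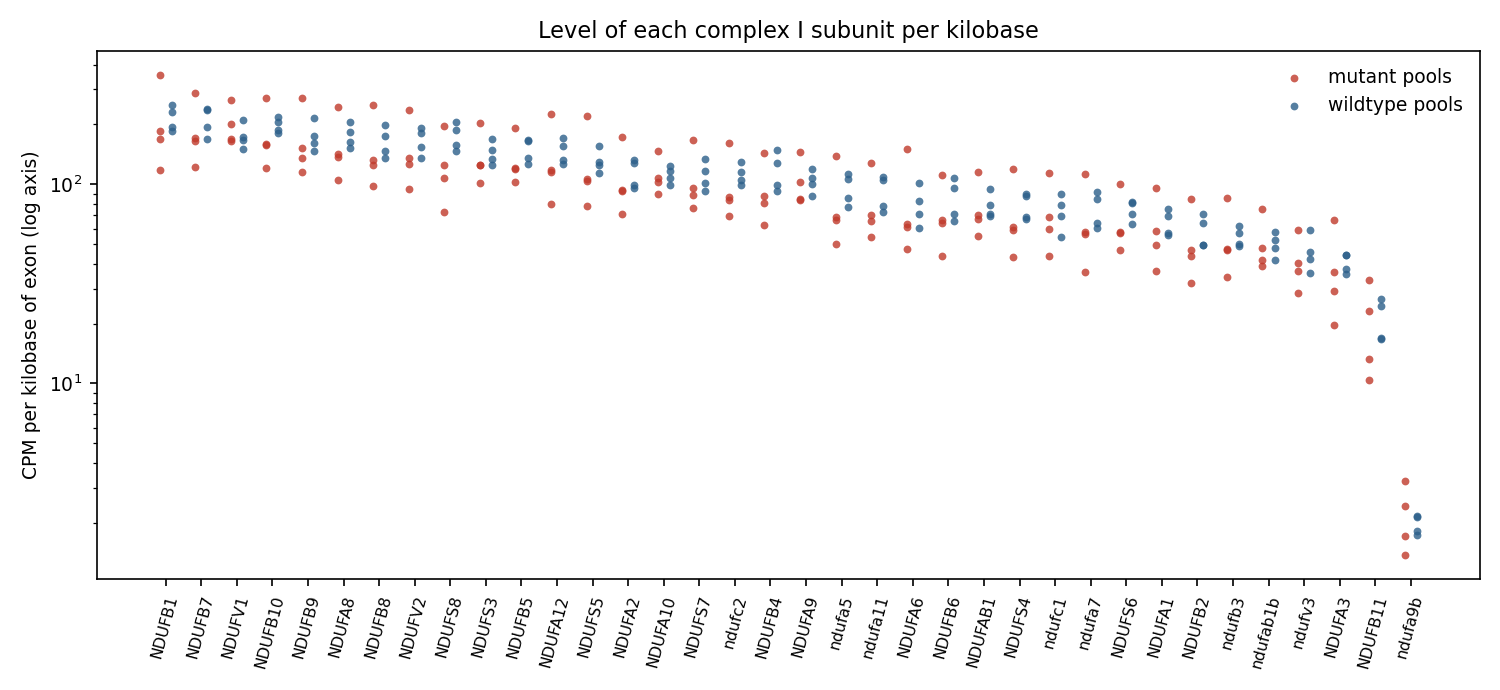
CPM per kilobase of exon of each tested complex I subunit (y axis, log scale), in the 4 mutant pools and the 4 wildtype pools, with subunits ordered by their mean (x axis). NDUFB1 is highest at 207 in mutants and 215 in wildtypes on average, and ndufa9b lowest at 2.19 in mutants and 1.96 in wildtypes.

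Levels were also set against the mean of the complex in the same pool, which removes the shared shift of each pool. Of the 36 subunits, only NDUFS8 then had separate groups. On this scale, with its wildtype mean at 0, it lay at -0.54, -0.19, -0.40 and -0.37 (log2) in mutant replicates 1 to 4, against -0.07, -0.13, 0.14 and 0.06 in wildtype replicates 1 to 4. All 4 mutant pools, replicate 4 included, lay below all wildtype pools. With libraries scaled to the complex I subunits, groups were separate and lower for 1 of 36 subunits, beside 0.869% of all genes. In the higher direction there were 0 of 36, and 2.01% of all genes were separate in either direction. A count of 1 is too small to read against these shares. The subunits themselves set this scale and the other genes do not, so the shares are also not alike. The fit of all genes on this scale gave NDUFS8 a log2 fold change of -0.37 ± 0.243 (SE) and an edgeR adjusted p of 0.735. It called 0 of 36 subunits, beside 0.0780% of all genes, with 0 unadjusted p under 0.05, so the separation of NDUFS8 did not pass the test. NDUFV1 lay at the other end, at 0.66, 0.21, 0.48 and 0.04 in mutant pools against 0.10, 0.03, -0.12 and 0.00 in wildtype pools, where only mutant replicate 4 fell within the wildtype range. NDUFB4 was at -0.18, -0.11, -0.23 and -0.25 in mutant pools, and at -0.16, 0.12, 0.04 and 0.00 in wildtype pools, an overlap through mutant replicate 2 and wildtype replicate 1.

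**Figure D4:**
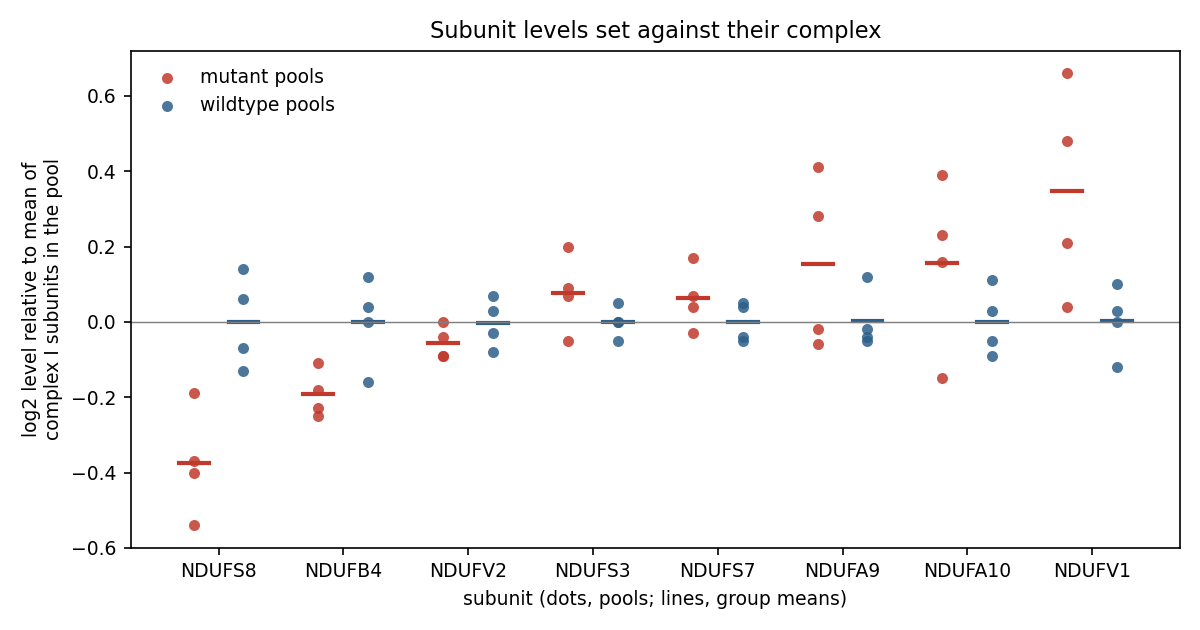
Log2 level of 8 complex I subunits relative to the mean of all tested subunits in the same pool, with the wildtype mean of each gene at 0 (y axis), in mutant pools and wildtype pools (dots; lines are group means). For NDUFS8 the mutant pools lie between -0.54 and -0.19 and the wildtype pools between -0.13 and 0.14, without overlap.

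Compared with nuclear subunits, those encoded in the mitochondrial genome had closer mean levels among mutant pools, though not among wildtype pools. The mean log2 level of these 7 genes, MT-ND1 to MT-ND6 and mt-nd4l, relative to wildtype stood at -0.20, 0.08, 0.03 and -0.03 in mutant replicates 1 to 4, against -0.25, 0.06, 0.30 and -0.11 in wildtype replicates 1 to 4. In mutant replicate 4 the nuclear subunits were at 0.56 and the mitochondrially encoded ones at -0.03. None of the 7 passed edgeR's test (beside 2.02% of all genes) and 0 had an unadjusted p under 0.05 (beside 18.0%), counts too small to read against the background, and their median log2 fold change was 0.00. MT-ND3 had 833, 1060, 961 and 1070 CPM in mutant replicates 1 to 4, against 885, 1060, 1420 and 1050 CPM in wildtype replicates 1 to 4. MT-ND4, a proton-pumping subunit, had 9720, 9710, 11400 and 9690 CPM in mutant pools, against 9500, 11400, 13400 and 9750 CPM in wildtype pools. Both were highest in wildtype replicate 3, and the groups overlapped. Their log2 fold changes were -0.17 ± 0.158 and -0.12 ± 0.145 (SE).

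Assembly factors of complex I, which build the enzyme without remaining in it, were matched for 18 of 19 names. None passed edgeR's threshold (beside 2.02% of all genes), 1 of 18 had an unadjusted p under 0.05 (beside 18.0%), and their median log2 fold change was -0.03, with 11 of 18 below 0 (beside 49.6%). Without mutant replicate 4 their median was -0.21, with 16 of 18 below 0 (beside 50.6%). With a lower level, 3 of 18 then had an unadjusted edgeR p under 0.05 (beside 10.2%). Their mean was highest in that pool, so this direction too was fixed by its choice. ECSIT, an assembly factor also known from immune signalling, had 19.0, 20.9, 26.3 and 27.0 CPM in mutant replicates 1 to 4, against 15.6, 17.7, 17.4 and 13.4 CPM in wildtype replicates 1 to 4. All mutant pools lay above all wildtype pools (groups are separate in 11.7% of all genes), with a log2 fold change of 0.54 ± 0.147 (SE) and an edgeR adjusted p of 0.0818, which is not past the threshold. NUBPL, which delivers iron-sulphur clusters to complex I, had 4.01, 4.2, 5.41 and 4.62 CPM in mutant pools, against 6.72, 5.46, 4.44 and 6.79 CPM in wildtype pools, and the groups overlapped (-0.36 ± 0.182, SE).

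Other groups of nuclear genes were also lowest on average in mutant replicate 1 and highest in mutant replicate 4. The mean log2 level of 15 other nuclear complex IV subunits relative to wildtype was -0.55, -0.22, -0.31 and 0.52 in mutant replicates 1 to 4, against -0.15, 0.18, 0.15 and -0.18 in wildtype replicates 1 to 4. For 18 ATP synthase subunits it was -0.63, -0.21, -0.24 and 0.66 in mutant pools, against -0.13, 0.21, 0.11 and -0.19 in wildtype pools. The 75 cytosolic ribosomal protein genes stood at -0.40, -0.12, -0.22 and 0.59 in the same pools, against -0.07, 0.07, 0.03 and -0.03 in wildtype replicates 1 to 4. The 18 complex I assembly factors, which are longer (median of 1741 exonic bases), stood at -0.31, -0.24, -0.03 and 0.34 in mutant pools. In wildtype replicates 1 to 4 these factors stood at -0.02, 0.19, -0.05 and -0.12. Complex I subunits have a median of 822.5 exonic bases, against 2467 over all genes tested. Each gene was also set against its own mean over all 8 pools. On that scale, the mean of long genes (at least 4088 exonic bases) less that of short genes (at most 1582) was taken in each pool. It came to 0.20, 0.01, 0.18 and -0.21 (log2) in mutant replicates 1 to 4, against -0.05, -0.09, -0.09 and 0.05 in wildtype replicates 1 to 4. A smooth trend of each library on exon length was taken relative to the wildtype mean. At the lengths of the subunits it amounted to -0.20, -0.06, -0.15 and 0.11 on the log2 scale in mutant pools and to between -0.04 and 0.03 in wildtype pools. With this trend removed the mean of the subunits was -0.51, -0.22, -0.13 and 0.45 in mutant replicates 1 to 4, against -0.14, 0.21, 0.09 and -0.16 in wildtype replicates 1 to 4.

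**Figure D5:**
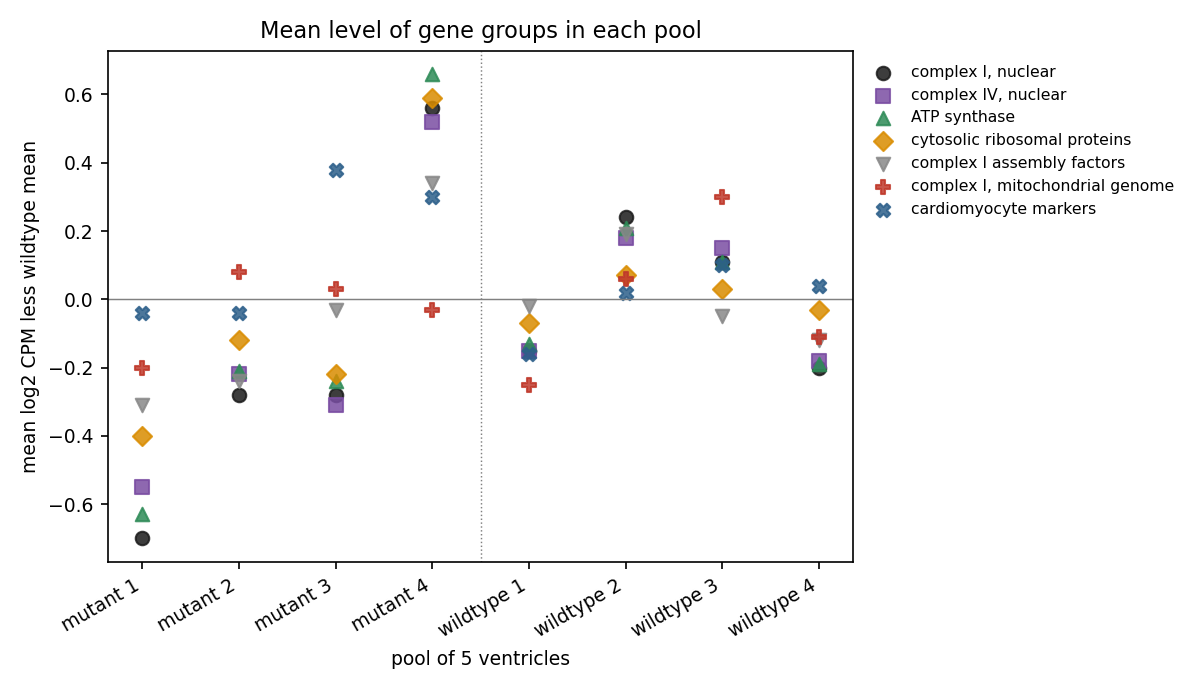
Mean log2 CPM of gene groups less their wildtype mean (y axis) in each pool of 5 ventricles (x axis). In mutant replicate 4 nuclear complex I (0.56), complex IV (0.52), ATP synthase (0.66) and cytosolic ribosomal protein genes (0.59) are high together. Complex I assembly factors stand at 0.34 there, and complex I genes of the mitochondrial genome at -0.03.

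Without mutant replicate 4 and with the trend on exon length removed together, the subunits had a median log2 fold change of -0.30, and 34 of 36 were below 0, beside 49.8% of all genes. An unadjusted p under 0.05 with a lower level was left for 15 of 36, beside 9.51% of all genes, and 0 of 36 passed edgeR's threshold, beside 1.89% of all genes. NDUFS8 then had a log2 fold change of -0.70 and an edgeR adjusted p of 0.0811, and NDUFV1 of 0.02. Across the 36 subunits the Spearman correlation of the log2 fold change with exon length was 0.309 with all pools and 0.341 with the trend removed, and without mutant replicate 4 it was 0.417 and, with the trend removed, 0.386. These are descriptions over genes that share libraries, and the values without mutant replicate 4 lean to lower levels by the choice of that pool.

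Markers of the cell types a ventricle pool can hold were given the same account. Summed over the 15 tested of 17 matched rows of the cardiomyocyte list, levels were 83162, 86952, 105727 and 108647 CPM in mutant replicates 1 to 4, against 83727, 93895, 93430 and 92131 CPM in wildtype replicates 1 to 4. The sums of mutant replicates 3 and 4 were the highest, at complex I means of -0.28 and 0.56. They are weighted to the most abundant rows, and their relation to the complex I level was not tested. Of the 15 rows, 5 (cmlc1, MYL7, TNNI1, atp2a2a and 1 of 2 TNNT2 rows) were lowest in mutant replicate 1 and highest in mutant replicate 4, beside 4.32% of all genes, and the other 10 were not. Groups were separate in 2 of the 15 rows, both higher in mutants, beside 11.7% of all genes. A count of 2 is too small to read against this share, and neither row passed edgeR's threshold. MYH6 had 2040, 1700, 2330 and 1720 CPM in mutant pools, against 1250, 1290, 1230 and 1450 CPM in wildtype pools. Its log2 fold change was 0.58 ± 0.137, and that of actc1a 0.42 ± 0.154 (SE). A second row, myh6, overlapped (0.25 ± 0.353, SE). The pool values that follow are of markers chosen after their values were seen. The myosin light chain gene cmlc1 had 4000, 5640, 5610 and 9550 CPM in mutant pools, against 5480, 7850, 6930 and 6460 CPM in wildtype pools, and MYL7 8420, 10400, 11500 and 14300 CPM in mutant pools, against 9820, 12300, 13000 and 11800 CPM in wildtype pools. The myosin heavy chain MYH7, which takes about as many counts as the rest of the list, had 43800, 43000, 55200 and 47600 CPM in mutant pools, against 43000, 45300, 45800 and 45300 CPM in wildtype pools, and was highest in mutant replicate 3.

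Of the other lists, 9 fibroblast and epicardial rows summed to between 5186 and 7179 CPM in mutants and between 3435 and 6784 CPM in wildtypes, and 8 leukocyte rows to between 293 and 453 CPM in mutants and between 313 and 481 CPM in wildtypes. The 6 endothelial rows summed to between 1084 and 1417 CPM in mutants and between 1142 and 1452 CPM in wildtypes, and 4 smooth muscle rows to between 403 and 444 CPM in mutants and between 361 and 500 CPM in wildtypes. The 4 tested erythrocyte rows summed to 1148, 621, 1715 and 1435 CPM in mutant replicates 1 to 4, and to between 546 and 932 CPM in wildtype pools. None of the tested rows of these other lists had both mutant replicate 1 lowest and mutant replicate 4 highest. The share over all genes is 4.32%, and the rows are too few to read against it. No tested marker row was at 0 in a pool, the lowest being the lysozyme gene lyz of neutrophils and macrophages, at 0.0811 to 0.355 CPM in mutants and 0.313 to 0.498 CPM in wildtypes. No tested marker row passed edgeR's threshold (beside 2.02% of all genes), and 8 of 46 had an unadjusted p under 0.05, a share near the 18.0% of all genes. The part of cell types, exon length and depth in the spread of complex I among mutant pools was not tested.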

How the data were processed

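Per the labels' protocols, directional Illumina libraries were made from total RNA of 8 pools, 4 per genotype. Per the file headers, exonic reads were summed to genes by the authors in featureCounts 2.0.3 (strand setting 2; Ensembl 109, GRCz11), with no option for reads shared by genes. The submitters' processing notes also name fastp, STAR, FastQC and MultiQC, without versions. The deposited table holds raw counts for each gene, with the exonic length of each gene in bases, and no row lacks a gene (0 rows). No per-sample column was left unused (0 columns), and 29201 of 32520 gene IDs had a symbol.

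Genes were filtered with filterByExpr at a minimum count of 10, which left 17949, and libraries were scaled by TMM factors. CPM values were computed from the counts and the TMM-adjusted library sizes, with a prior count of 2 on the log2 scale. They were divided by exonic kilobases where levels of genes are compared. The test between genotypes was the quasi-likelihood F test of edgeR 4.0.16 in R 4.3.3, on genotype alone, with Benjamini-Hochberg adjustment over all genes at 0.05. Standard errors are the size of the log2 fold change over the root of F. Positive fold changes are higher in mutants. Tested subunits had between 67 and 42198 counts per pool, and the spread between pools, not counting error, limits precision. P-values of the fits set the difference between genotypes against the spread between pools of the same genotype. The scripts were tested on simulated data.

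The members and lists were chosen with earlier results of these data known. Pool values are printed for core subunits, paralog pairs, up to 3 other subunits with the smallest p in each direction, and the highest and lowest per kilobase; of mitochondrially encoded genes and assembly factors for the 2 with the smallest p. Other members named were chosen after their values were seen. Alternatives were other scalings, filters, DESeq2 1.42.0, limma-voom (limma 3.58.1), a replicate block, 1 surrogate variable (sva 3.50.0), a trend on exon length removed (lowess span 0.3), and each pool left out. A count of subunits by their SD was added after the data were seen. Promoter and protein sequences were not used here.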

Additional observations from a re-analysis of the deposited data

Results flagged for a closer look

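Among the nuclear subunits, their mitochondrially encoded partners, the assembly factors and cox7a1, 5 of 124 groups of 4 pools held a pool that stood far from the other 3, measured as its gap to the nearest pool over the range of the group; chance gives about 1 in 20. NDUFA6 had 125 CPM in mutant replicate 4, against 39.0 to 52.1 CPM in the other mutant pools. MT-ND4 had 11400 CPM in mutant replicate 3, against 9690 to 9720 CPM in the other mutant pools. MT-ND6, the complex I gene on the opposite strand of the mitochondrial genome, had 348 CPM in mutant replicate 2, against 160 to 186 CPM in the others. NDUFAF1, an assembly factor, had 75.1 CPM in wildtype replicate 2, against 54.5 to 57.6 CPM in the other wildtype pools, and TMEM70 had 10.1 CPM there, against 7.64 to 7.96 CPM.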

How the results depend on the processing

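Under all 20 alternatives, 0 complex I subunits were called. Their median log2 fold change, -0.10 with all pools, lay between -0.30 and -0.01 under the alternatives with no single pool left out on its own, and between -0.45 and 0.06 with 1 pool left out. Libraries scaled to complex I left 19 subunits below 0, and 14 to 35 were below 0 with 1 pool left out. The SD was larger in mutants for 18 subunits without mutant replicate 4 and 36 without mutant replicate 1. Genes called over the transcriptome numbered 157 with library totals alone, 14 with libraries scaled to complex I (which moves the median of all genes to 0.23), 1095 with DESeq2, and 68 to 473 with 1 pool left out. cox7a1 passed the threshold without mutant replicate 4 (-1.50, edgeR adjusted p = 0.0144) and with no filter (-1.12), DESeq2 (-1.11), the length trend removed (-1.07) and mutant replicate 4 left out with the length trend removed (-1.36), and ranged from -1.50 to -0.91 with 1 pool left out, with no call when any other single pool was left out.

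Of 300 values of the 15 subunits given by pool, none passed the threshold and 43 had the opposite sign to the value with all pools, at -0.47 to 0.13, with the cause not tested. NDUFA10, at 0.00 with all pools, ran from -0.16 to 0.17. NDUFA9, ndufab1b and NDUFA6 became -0.05, -0.03 and -0.04 with library totals, -0.03, -0.02 and -0.10 with limma-voom, -0.01, -0.01 and -0.06 with 1 surrogate variable, and -0.14, -0.14 and -0.31 without mutant replicate 4 and with the length trend removed. NDUFS3 and NDUFAB1 became 0.01 and 0.03 with the length trend removed, and NDUFS3, NDUFS7, NDUFAB1 and NDUFB1 0.08, 0.06, 0.10 and 0.02 with libraries scaled to complex I. With 1 pool left out, the ranges were -0.30 to 0.06 for NDUFS3, -0.36 to 0.06 for NDUFS7, -0.20 to 0.10 for NDUFA9, -0.09 to 0.32 for ndufa9b, -0.30 to 0.09 for NDUFAB1, -0.23 to 0.12 for ndufab1b, -0.47 to 0.21 for NDUFA6 and -0.45 to 0.13 for NDUFB1.

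Deviations of pools of the same number had correlations of 0.246, -0.071, 0.036 and -0.066 across genes. For mutant replicate 1 the wildtype pool of its own number correlated best, and for mutant replicates 2, 3 and 4 another number did. These values cannot tell whether pools of the same number share a batch. The replicate block gave 210 called genes, 0 complex I subunits, and -0.03, -0.02 and -0.12 for NDUFA9, ndufab1b and NDUFA6.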
